A study of Sus scrofa with 9 samples.

Results

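Pig DUXC was compared with GFP in cultured pig muscle precursor cells by messenger RNA sequencing. The comparison uses 6 of the 9 libraries in the series, the 3 whose labels name the pig DUXC transgene and the 3 whose labels name GFP. It rests on the 15956 of 27339 genes in the count table that passed a filter on low counts. The cells were primary Gottingen pig myoblasts at passages 7 to 9, and every library came from cells carrying a doxycycline-inducible transgene and kept for 16 h in 1 µg/mL doxycycline, so the GFP group received the drug as well. The other 3 libraries carried human DUX4 under the same regime and enter only where DUXC is set directly beside it. The labels do not say how many animals gave the cells, whether the transgenic cells were pools or clones, or whether the libraries sharing a transgene were grown apart. The p-values therefore speak only of the spread among these libraries, which may be technical. No row of the table bears the name of either transgene, and the level of DUXC itself was not analysed here.

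DUXC belongs to the DUX family of transcription factors, which bind DNA through a pair of homeodomains and are present in many placental mammals. DUX genes are normally switched on during the earliest cleavages, where they activate genes of that stage. DUXC is the member kept by pigs, cattle and dogs, and the human gene DUX4, whose expression in skeletal muscle underlies facioscapulohumeral muscular dystrophy, is thought to derive from an ancestral DUXC gene. Myoblasts are the dividing precursors of skeletal muscle. They are usually recognised by the factors PAX7, MYF5 and MYOD1, and cultures of them can also hold connective tissue cells.

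The libraries held 36580573 to 38971217 counts with DUXC and 39979602 to 42362395 with GFP. Between 20850 and 21033 genes had a count in each DUXC library, against 17898 to 18066 in each GFP library. Normalised counts are given as CPM, counts scaled to a common library size after TMM factors, which were 1.05 to 1.06 with DUXC and 0.960 to 0.974 with GFP. Levels are not compared between genes. The label of the cells was checked against marker genes. MYOD1, the factor that commits cells to muscle, had 1 count in the 3 GFP libraries together and 4 in the 3 DUXC libraries. MYOG and MYF6, factors of differentiating muscle, had 6 and 2 counts with GFP and 19 and 28 with DUXC, and none of these 3 genes passed the filter. The other defining genes were low but present: PAX7 had 1.24, 1.22 and 0.918 CPM with DUXC and 0.514, 0.334 and 0.359 CPM with GFP, and the intermediate filament gene DES had 0.981, 1.22 and 0.994 CPM with DUXC and 6.78, 7.37 and 7.31 CPM with GFP. The defining factors of the myoblast label were thus scarce in both groups, and the libraries are called by their transgene in what follows. Of the markers of other cells, the 58 fibroblast and matrix genes summed to 35731 to 37041 CPM with DUXC and 69246 to 72007 CPM with GFP. For the 18 smooth muscle and pericyte genes the sum was 2066 to 2180 CPM with DUXC and 6467 to 6526 CPM with GFP. The 20 endothelial genes summed to 95.5 to 101 CPM with DUXC and 94.4 to 99.1 CPM with GFP. The defining endothelial gene CDH5 had 11 counts with DUXC and none with GFP. The 17 adipocyte genes summed to 116 to 121 CPM with DUXC and 98.9 to 105 CPM with GFP, with 6 of them at 0 in every GFP library. In bulk RNA, fewer cells of a type and less RNA per cell cannot be told apart.

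With DUXC, 6422 of the tested genes rose (40.2%) and 6743 fell (42.3%) in edgeR's quasi-likelihood test at an adjusted p of 0.05. Rises reached 2-fold in 3400 genes (21.3%) and 8-fold in 1419 (8.89%), while falls reached 2-fold in 1272 (7.97%) and 8-fold in 15 (0.094%). A gene list with about these shares of raised and lowered members does not stand out from the table. The DUXC and GFP libraries did not overlap for 83.5% of the tested genes. Genes named for their fold had to meet this condition, and others were named for a small p. Remarks below that groups stood apart, and the largest adjusted p-values given, therefore describe the named genes and support nothing further. The median log2 fold change over all tested genes was -0.031, and scaling by library size alone in place of TMM moved it to 0.094, so the side of 0 on which a small change falls depends on the scaling. The share of raised genes among those called was 48.8% with TMM and 55.9% by library size alone.

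Most of the strongly raised genes were nearly silent in the control. Of the 1419 genes raised at least 8-fold by the fitted value, 1278 had a mean under 1 CPM with GFP, 349 of them had no count there and 325 had 1 to 3 counts over the 3 libraries. Such genes pass the filter only through their DUXC or DUX4 counts, so their high share is partly fixed by the filter. With DUXC, 880 of the 1419 reached 1 CPM and 119 reached 100 CPM. Together they took 11.3 ± 0.326% of all counts in the DUXC libraries (SD, n = 3) and 0.169 ± 0.00237% in the GFP libraries. Genes lowered at least 2-fold went the other way, from 23.9 ± 0.236% of the counts with GFP to 9.85 ± 0.237% with DUXC. Of the 1419 genes, 421 (29.7%) carry only a locus identifier and 192 (13.6%) are annotated as long non-coding RNA, against 14.8% and 7.92% of all tested genes.

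**Figure D1:**
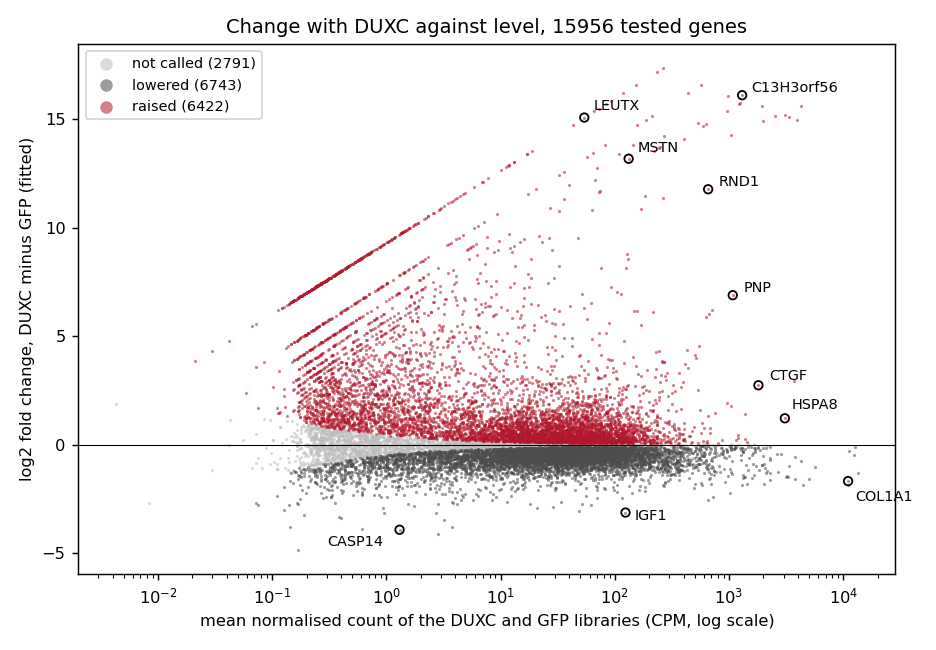
Fitted log2 fold change of DUXC against GFP for each of the 15956 tested genes, by its mean over the DUXC and GFP libraries in CPM on a log scale. The 6422 raised genes are red, the 6743 lowered genes dark grey and the others pale grey; the rises extend to 17.36 and the falls to -4.84, and the straight diagonal bands at the left are genes with 0 or a few counts with GFP, whose fitted values are no bounds.

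Some of the most raised genes were neighbours on the chromosome. Of 1396 genes raised at least 8-fold that lie on an assembled chromosome, 500 stood next to at least 1 other in the order of tested genes, and 228 lay in runs of 3 or more. With 8.89% of all tested genes raised this far, some would be neighbours anyway, and the number to be expected was not computed. The longest run, 12 genes on chromosome 7, holds locus identifiers only and is not described further. On chromosome 4, from 96236114 to 97182012 on Sscrofa11.1, a run of 8 holds the calcium-binding protein gene S100A9 and LOR, TCHH and TCHHL1, genes of the cornified cell envelope and hair follicle. A run on chromosome 5, from 17698343 to 18180277, holds the keratin genes KRT84, KRT6A, KRT3, KRT79 and KRT8. Another on the same chromosome, from 61779813 to 62396716, holds the lectin-like receptor genes OLR1, CLEC2B, KLRF1 and CLEC2D. A run on chromosome 8, from 66646241 to 67090540, holds the milk and saliva protein genes CSN1S1, STATH and ODAM. These runs and their genes were chosen after their values were seen, and what the neighbours share was not tested.

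A first question is which genes foreign to these cells came on with the pig factor, beginning with homeobox and zinc finger factors of the early embryo. Some of these factors act around the time the embryo starts to transcribe its own genome, while others, such as GSC, are of later stages. Of 17 in the table, 11 were tested, 10 rose and 1 fell, beside 40.2% and 42.3% of all tested genes. Of the 11, 9 were under 1 CPM with GFP, and genes silent there enter the test only through the factor libraries, so that count supports nothing by itself; over all 17, 15 had a higher mean with DUXC and 1 a lower one. LEUTX, a PRD-like homeobox factor, had 104, 114 and 106 CPM with DUXC and no count with GFP. DPRX, another PRD-like factor, had 7.44, 8.03 and 6.63 CPM with DUXC and no count with GFP. The Kruppel-like factor KLF17, found in the human epiblast, had 3.44, 3.85 and 4.31 CPM with DUXC and 0.0489, 0 and 0 CPM with GFP. All 3 DUXC libraries lay far above every control library for each of these genes. The rise was at least 4280.1-fold for LEUTX and at least 292-fold for DPRX, where the bound sets 3 counts over the GFP libraries in place of none, and the ratio for KLF17 was 229 (63.2 to 1901). The range in brackets is a 95% interval that, like the bounds, covers counting error only.

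Factors of this group that were already present in the control also rose. KLF5, a factor of the trophectoderm and early epiblast, had 35.8, 41.3 and 36.5 CPM with DUXC and 0.930, 0.847 and 1.08 CPM with GFP, a log2 fold change of 5.31 ± 0.10, where the value after ± is the standard error from the fit. GSC, a homeobox factor of the gastrula organizer, had 13.3, 16.6 and 14 CPM with DUXC and 0.759, 0.899 and 0.924 CPM with GFP, a log2 fold change of 4.09 ± 0.13. No DUXC library overlapped a GFP library for either gene. KLF4, a pluripotency factor that is also common in fibroblasts, was the member that fell, from 159.8 ± 2.38 to 86.6 ± 1.14 CPM (log2 -0.88). The largest adjusted p among LEUTX, DPRX, KLF17, KLF5, GSC and KLF4 was 7.85e-23. ZSCAN4, a zinc finger gene of the cleavage stage, and the PRD-like factor ARGFX, both without a count in the control, reached only 1.11 ± 0.145 and 1.55 ± 0.170 CPM. Of the 6 members below the filter, DUXA had 19 counts with DUXC and none with GFP.

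Effector genes of the cleavage-stage embryo, those that are not transcription factors, rose in most but not all cases. Of 31 in the table, 24 were tested, 17 rose, 15 of them at least 2-fold, 3 fell and 4 did not pass, and 5 of the 24 were under 1 CPM with GFP. Over all 31, 22 had a higher mean with DUXC and 8 a lower one. PNP, purine nucleoside phosphorylase, had 2075, 2229 and 2103 CPM with DUXC and 19.3, 16.8 and 17.7 CPM with GFP, a log2 fold change of 6.90 ± 0.043. NXF1, the main export receptor for messenger RNA, had 954, 996 and 958 CPM with DUXC and 61.8, 62.9 and 58.9 CPM with GFP (log2 3.99 ± 0.035). C1D, a cofactor of the nuclear RNA exosome, had 750.2, 766 and 796 CPM with DUXC and 57.7, 61.8 and 58.0 CPM with GFP (log2 3.70 ± 0.035). These 3 genes had counts in the control, and their DUXC libraries lay far above it. UBTFL1, a relative of the ribosomal RNA gene activator UBTF that is expressed in the early embryo, had 135, 144 and 138 CPM with DUXC and 0.0245, 0 and 0.0257 CPM with GFP, a ratio of 8259 (2286 to 68203). FGFR3, ARRDC3 and SPRYD3 fell, by log2 changes of -1.35, -0.60 and -0.23. The largest adjusted p among these genes was 2.05e-06.

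Pluripotency genes showed many rises at low levels. Of 37 in the table, 22 were tested and 19 of these rose, 14 of the 22 having been under 1 CPM with GFP. SOX2, a core factor of pluripotent cells, had 12.5, 12.7 and 12.9 CPM with DUXC and 0, 0 and 0.0257 CPM with GFP, a ratio of 1506 (269.9 to 59516). DPPA2, a factor of the naive state, had 7.13, 8.87 and 7.98 CPM with DUXC and 0.0734, 0.0770 and 0.0770 CPM with GFP, while NANOG was at least 34.3-fold higher at 0.862 ± 0.331 CPM. The third core factor, POU5F1, had 15 counts with DUXC and 14 with GFP and was below the filter. TBX3, a T-box factor expressed in the control, rose from 28.6 ± 0.639 to 102 ± 1.85 CPM (log2 1.83 ± 0.039). KIT, the receptor of stem cell factor, fell with a log2 fold change of -0.74. Of all 37 genes in the table, tested or not, 32 had a higher mean with DUXC and 5 a lower one. A higher mean with DUXC was found for 48.7% of all 27339 genes in the table, 4255 of which had no count with DUXC or GFP. In numbers, 13324 genes had a higher mean and 9760 a lower one. Of the 22 tested pluripotency genes 16 rose at least 2-fold. Among all tested genes averaging under 1 CPM over the DUXC and GFP libraries, 48.4% rose that far, beside 21.3% of all tested genes. The 48.4% bears also on the lists below with many members under 1 CPM in the control.

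Trophectoderm and placental genes rose in 19 of 29 tested (65.5%) and fell in 7 (24.1%), beside 40.2% and 42.3% of all tested genes. Of the 29, 18 were under 1 CPM with GFP and 17 rose at least 2-fold. PEG10, an imprinted gene derived from a retrotransposon and needed in the placenta, rose from 404 ± 7.79 to 1110.2 ± 15.2 CPM (log2 1.46 ± 0.030). SPP1, osteopontin, and TFAP2A, a trophoblast factor, rose with log2 fold changes of 2.68 and 1.16, and the ratio for PLET1, a placental surface protein, was 129 (43.9 to 629.8). The trophoblast factor GATA2, HAND1, and the epithelial genes CLDN6 and KRT7 fell, by log2 changes of -0.70, -2.69, -1.62 and -1.27. The key trophectoderm factor CDX2 had 1 count with DUXC and none with GFP. Endoderm and yolk sac genes rose in 10 of 15 (66.7%) and fell in 3 (20%). Of the 15, 11 were under 1 CPM in the control and 7 rose at least 2-fold. HHEX, a homeobox factor of anterior endoderm, rose from 0.389 ± 0.196 to 10.1 ± 0.286 CPM, while CUBN, the endocytic receptor cubilin, fell with a log2 fold change of -1.16.

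Germ cell genes rose in 15 of 28 tested (53.6%) and fell in 4 (14.3%), beside 40.2% and 42.3% of all tested genes. Of the 28, 18 were under 1 CPM in the control and 11 rose at least 2-fold. Without a filter 26 were called raised, and with a filter of 1 CPM in 3 libraries 9. Over all 64 in the table, 46 had a higher mean with DUXC and 13 a lower one. TEX14, a protein of the bridges that join germ cells, had 50.1, 54.1 and 50.1 CPM with DUXC and 0.367, 0.128 and 0.359 CPM with GFP (log2 7.47 ± 0.12). BRDT, the testis bromodomain protein, had 9.09, 9.67 and 9.25 CPM with DUXC and no count with GFP, with a rise of at least 370.0-fold. Libraries of the groups stood apart for both genes. CCNB3, a meiotic cyclin, rose from 6.76 ± 0.362 to 28.1 ± 0.992 CPM, and SYCP2, part of the synaptonemal complex, fell from 92.6 ± 7.72 to 33.1 ± 0.688 CPM. The other 36 were below the filter, among them the meiotic recombination genes DMC1, with 8 counts with DUXC and 11 with GFP, and SPO11, with none in either, both named after their values were seen.

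Genes of neurons changed in both directions, with 16 of 28 raised (57.1%), all at least 2-fold, and 10 lowered (35.7%). These shares stand beside 40.2% and 42.3% of all tested genes, and 13 of the 28 were under 1 CPM in the control. NEUROG2, a proneural factor, had 32.7, 39.2 and 36.9 CPM with DUXC and 0.269, 0.437 and 0.513 CPM with GFP (log2 6.48 ± 0.12). BHLHE22, a related factor of cortical neurons that is not in the list, was named for its fold. It had 148, 149 and 147 CPM with DUXC and 0.0489, 0.0514 and 0.0257 CPM with GFP (log2 11.68). Both lay far above every control library. HTR1F, a serotonin receptor, had 14.6, 16.1 and 15.6 CPM with DUXC and no count with GFP, so that it rose at least 611-fold. The neurofilament gene NEFH and the microtubule protein gene MAP2 rose with log2 fold changes of 3.33 and 2.85. NCAM1, an adhesion molecule of neurons and muscle precursors, DCX, a microtubule protein of migrating neurons, and VAMP2, a synaptic vesicle protein, fell, by log2 changes of -0.63, -0.97 and -0.59. The summed level of the neuronal list stood at 377 to 392 CPM with DUXC and 333 to 348 CPM with GFP.

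Single genes typical of other tissues rose from under 1 CPM in the control. CYP7A1, the rate-limiting enzyme of bile acid synthesis, a liver gene, had 354, 372 and 379 CPM with DUXC and 0.147, 0.103 and 0.128 CPM with GFP (log2 11.47 ± 0.082). KCNK10, a potassium channel, had 1 count over the GFP libraries and 40.6 ± 1.93 CPM with DUXC, a ratio of 4821 (865 to 190474). ADGRE1, a receptor of macrophages, had 23.0, 25.5 and 22.5 CPM with DUXC and no count with GFP. ACOD1, which makes itaconate in activated macrophages, had 19.8, 19.4 and 20.7 CPM with DUXC and no count with GFP, and NKG7, of natural killer cells, was at least 206-fold higher at 5.19 ± 0.790 CPM. There was no overlap of the groups for any of these genes, a condition of naming those chosen by fold. In the immune cell list 7 of 11 tested genes rose, or 11 without a filter, and CSF1R and ITGAM fell, and the summed level was 72.3 to 77.5 CPM with DUXC and 17.9 to 20.4 CPM with GFP. The defining leukocyte gene PTPRC had 16 counts with DUXC and none with GFP, and CD3E had 1 and none, both below the filter.

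**Figure D2:**
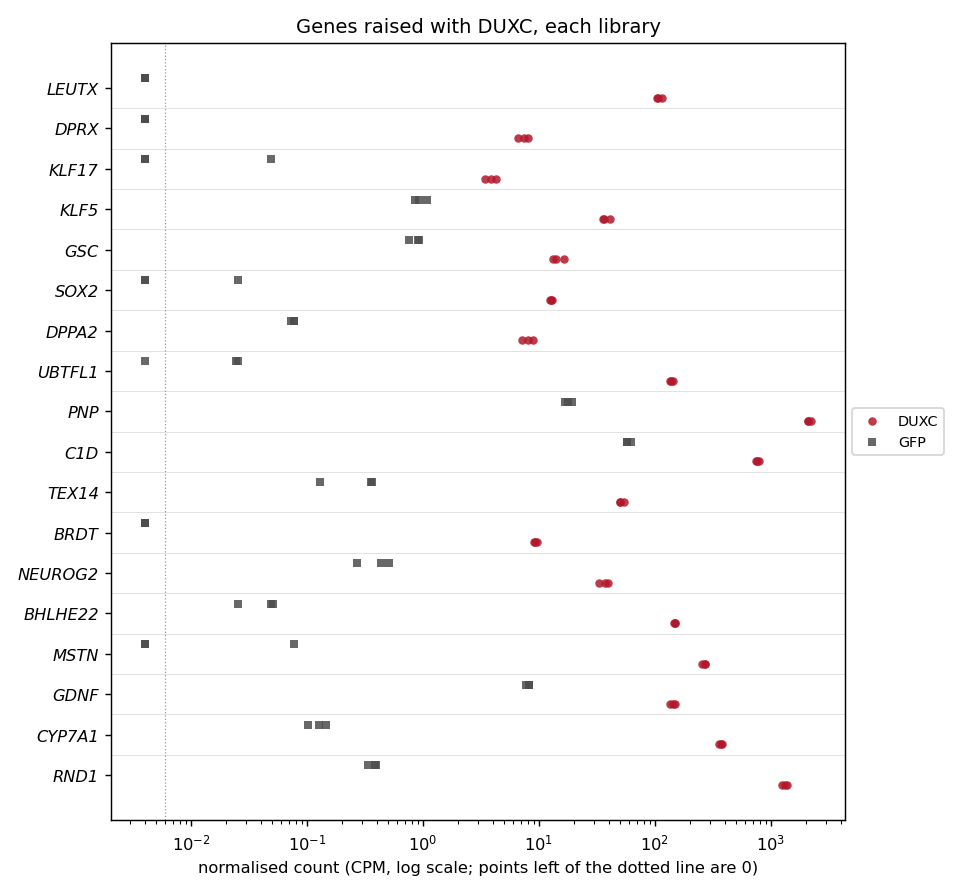
Normalised counts (CPM, log scale) in each of the 3 DUXC and 3 GFP libraries for 18 genes raised with DUXC, with libraries at 0 drawn left of the dotted line. In every gene shown the 3 DUXC libraries lie close together and to the right of all 3 GFP libraries.

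Lists of other differentiated cells and tissues were mixed. Cartilage, bone and tendon genes rose in 17 of 28 and fell in 9. IBSP, bone sialoprotein, had 7.85, 8.01 and 8.57 CPM with DUXC and 0, 0 and 0.0257 CPM with GFP, a ratio of 967 (173 to 38229), and SOX5, a partner of SOX9 in cartilage, rose from 8.30 ± 0.154 to 36.4 ± 0.920 CPM. SP7, the osteoblast factor osterix, and FMOD, the tendon proteoglycan fibromodulin, fell from 7.73 ± 0.141 to 1.54 ± 0.132 CPM and from 3233 ± 93.9 to 1319 ± 29.6 CPM. Epidermal genes rose in 10 of 17 and fell in 5, with 10 of the 17 under 1 CPM in the control, and with the filter of 1 CPM in 3 libraries 3 rose. The keratinocyte gene CASP14 had 0.103, 0.147 and 0.229 CPM with DUXC and 2.62, 2.36 and 2.36 CPM with GFP (log2 -3.91 ± 0.25), and the connexin gene GJB2 fell with a log2 fold change of -3.44. The groups did not overlap for either gene. KRT6A, a keratin of stressed epidermis, was at least 35.3-fold higher, at 0.893 ± 0.163 CPM.

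Among adipocyte genes 5 of 11 rose (45.5%), or 3 with that stricter filter, and 3 fell (27.3%), beside 40.2% and 42.3% of all tested genes. FABP4, the fatty acid carrier of fat cells, had 8.57, 8.65 and 9.31 CPM with DUXC and no count with GFP. Its rise was at least 350.0-fold. LPL, lipoprotein lipase, rose from 0.639 ± 0.0399 to 27.7 ± 2.34 CPM. CEBPA, a factor of fat cell differentiation, fell from 1.03 ± 0.180 to 0.252 ± 0.0427 CPM. Of 11 endothelial genes 5 rose, from 2 with the stricter filter to 8 with none, and 5 fell. These are 45.5% each way, near the 40.2% and 42.3% of all tested genes. PECAM1, an adhesion molecule of endothelium and platelets, rose from 6.16 ± 0.525 to 24.7 ± 1.27 CPM, and EMCN and FLT1, a receptor for VEGF, fell with log2 fold changes of -0.89 and -1.03. Early mesoderm and heart genes rose in 8 of 23 (34.8%) and fell in 9 (39.1%), near the 40.2% and 42.3% of all tested genes. EOMES, a T-box factor of the gastrula, rose from 0.0420 ± 0.0142 to 2.26 ± 0.398 CPM, and MEF2C, a factor of heart and skeletal muscle, from 4.77 ± 0.203 to 18.1 ± 0.675 CPM.

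By absolute gain the largest contributions came from genes of mixed function, several of them active in the control. CTGF, a matrix-associated protein and a classic target of the Hippo pathway, had 3134, 3198 and 3099.7 CPM with DUXC and 488, 461 and 457 CPM with GFP (log2 2.75 ± 0.031). RND1, a GTPase that loosens actin fibres and adhesion, had 1251, 1369.6 and 1312 CPM with DUXC and 0.392, 0.385 and 0.334 CPM with GFP (log2 11.78 ± 0.065). ADAMTS4, a protease that cuts aggrecan, had 1339.6, 1452 and 1375 CPM with DUXC and 18.5, 18.7 and 19.2 CPM with GFP (log2 6.21 ± 0.046). The copper importer SLC31A1 reached 1326 ± 45.6 CPM (log2 6.05 ± 0.042), the exonuclease gene REXO1 rose from 44.0 ± 1.41 to 1047 ± 50.9 CPM and R3HCC1L from 21.0 ± 0.564 to 1232 ± 18.5 CPM. HSPA8, the constitutive cytosolic chaperone, and CLU, a secreted chaperone, rose from already high levels, from 1846 ± 3.72 to 4311 ± 148 CPM and from 459 ± 6.38 to 1603 ± 35.8 CPM. DDX5, an RNA helicase, rose from 752 ± 26.0 to 2025 ± 39.8 CPM. C13H3orf56, a gene without an assigned function, had 2534, 2784 and 2489.8 CPM with DUXC and 0.0734, 0.0257 and 0 CPM with GFP. In each of these genes all DUXC libraries lay above all GFP libraries. The raised and lowered genes named had adjusted p-values of at most 4.27e-11.

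Of 275 tested developmental transcription factors, some of the early embryo factors above included, 135 rose (49.1%) and 87 fell (31.6%). Of all tested genes 40.2% rose and 42.3% fell. At least 2-fold, 89 of the 275 rose and 14 fell, beside 21.3% and 7.97% of all tested genes. Factors of later lineages were among those raised. LHX1, a LIM-homeobox factor of the head organizer and kidney, had 15.4, 15.5 and 15.0 CPM with DUXC and 0.0489, 0 and 0.0257 CPM with GFP, a ratio of 605 (207 to 2938). Some factors were without counts in the control. The rise was at least 81.0-fold for ISL1, of heart and motor neuron progenitors, at least 204-fold for VAX1, of the ventral forebrain, and at least 105-fold for the forkhead factor FOXR1. MEOX1, a homeobox factor of the somite, rose from 0.0921 ± 0.0367 to 9.73 ± 0.408 CPM. Among the lowered factors were several of mesenchyme and its derivatives. PRRX1, a homeobox factor that marks limb and connective tissue mesenchyme, had 727, 718 and 738 CPM with DUXC and 2011, 2028 and 2004 CPM with GFP (log2 -1.47 ± 0.029). All 3 DUXC libraries lay far below the control. Its relative PRRX2 fell with a log2 fold change of -1.20, HAND2 with -1.65, FOXF1 with -1.57 and SOX9, the cartilage factor, with -1.28. MESP2, of the presomitic mesoderm, fell from 10.7 ± 0.739 to 2.55 ± 0.393 CPM. Among these genes the largest adjusted p was 4.09e-18.

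Of 33 tested HOX genes 14 rose (42.4%), near the 40.2% of all tested genes, and 10 fell (30.3%), beside 42.3%. HOXB6 had 172, 189 and 166 CPM with DUXC and 14.9, 16.0 and 14.7 CPM with GFP (log2 3.53 ± 0.057). HOXB2, in the same cluster, had 45.1, 50.3 and 44.0 CPM with DUXC and 3.77, 4.85 and 4.59 CPM with GFP (log2 3.40 ± 0.072). HOXC13 rose from 3.64 ± 0.226 to 18.2 ± 1.22 CPM. HOXD8, HOXC8, HOXA6 and HOXA5 fell, with log2 fold changes of -0.69, -0.86, -0.73 and -0.85. HOXC13 and HOXC8, of one cluster, thus moved in opposite directions. In the chromatin list 24 of 65 rose (36.9%) and 25 fell (38.5%), near the 40.2% and 42.3% of all tested genes. EZH2 and EED, subunits of Polycomb repressive complex 2, rose from 8.13 ± 0.399 to 59.5 ± 2.93 CPM and from 23.0 ± 0.242 to 111 ± 4.46 CPM, and the histone deacetylase HDAC1 fell from 114 ± 1.39 to 49.6 ± 1.54 CPM. The histone genes HIST1H2BD and HIST1H3E, whose transcripts mostly lack a poly(A) tail, rose, the first from 8.36 ± 0.761 to 230.2 ± 10.8 CPM.

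Zinc finger genes named ZNF or ZSCAN rose in 155 of 256 (60.5%) and fell in 53 (20.7%), beside 40.2% and 42.3% of all tested genes. At least 2-fold, 45 of the 256 rose and 3 fell, beside 21.3% and 7.97% of all tested genes. ZNF106 had 793, 806 and 823 CPM with DUXC and 68.6, 71.0 and 68.0 CPM with GFP (log2 3.54 ± 0.033) and ZNF711, found at CpG island promoters, had 60.0, 66.7 and 67.5 CPM with DUXC and 0.367, 0.128 and 0.128 CPM with GFP (log2 8.24 ± 0.12). The groups were far apart in both. Potassium channel genes rose in 22 of 44 (50%) and fell in 11 (25%), beside 40.2% and 42.3% of all tested genes. Of the 44, 27 were under 1 CPM in the control. Without a filter 35 rose, and with the filter of 1 CPM in 3 libraries 10. KCNJ13, an inward rectifier, was at 8.64 ± 0.593 CPM with DUXC, a ratio of 1027 (184 to 40598), and KCNE4, an accessory subunit, fell from 86.8 ± 2.13 to 10.6 ± 0.558 CPM. Solute carriers rose in 99 of 250 (39.6%) and fell in 109 (43.6%), near the 40.2% and 42.3% of all tested genes. SLC10A4, a vesicular carrier of cholinergic neurons, had 169, 180.0 and 169.6 CPM with DUXC and 3.79, 3.42 and 3.52 CPM with GFP (log2 5.59 ± 0.053), and SLC30A1, which exports zinc, rose from 23.4 ± 0.441 to 144 ± 3.95 CPM. The amino acid transporters SLC7A5 and SLC1A5 fell from 220.0 ± 9.25 to 80.3 ± 2.02 CPM and from 301 ± 11.0 to 117 ± 3.43 CPM.

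Genes of secreted signals and their receptors changed in both directions. Among TGF-beta family ligands 9 of 18 rose (50%) and 8 fell (44.4%), beside 40.2% and 42.3% of all tested genes. MSTN, the muscle growth inhibitor myostatin, had 253, 268 and 271 CPM with DUXC and 0, 0.0770 and 0 CPM with GFP, a ratio of 10457 (3578 to 50712). BMP4 and BMP2, which pattern mesoderm and bone, rose from 8.33 ± 0.425 to 33.0 ± 1.58 CPM and from 2.23 ± 0.434 to 6.97 ± 0.230 CPM. TGFB2 and TGFB3, which promote matrix production, fell from 22.4 ± 0.146 to 5.48 ± 0.204 CPM and from 130.0 ± 6.48 to 59.9 ± 0.272 CPM, and the activin subunit gene INHBE fell from 37.0 ± 1.13 to 4.91 ± 0.635 CPM. Of 28 receptors, antagonists and targets of the family 8 rose and 17 fell. The activin-class receptor genes ACVR1B and ACVR2A rose, with log2 fold changes of 1.19 and 0.68, as did the BMP antagonist GREM1 (0.84). The secreted protein FSTL1, the BMP antagonist CHRD and the receptor gene BMPR1B fell, with -1.51, -1.42 and -1.30. No adjusted p of these genes was above 2.30e-16.

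Of 37 growth factor genes and binding proteins 13 rose (35.1%) and 21 fell (56.8%), beside 40.2% and 42.3% of all tested genes. GDNF, a survival factor of neurons, had 136, 148 and 142 CPM with DUXC and 7.68, 8.27 and 8.21 CPM with GFP (log2 4.14 ± 0.053). ANGPT2, an antagonist of the endothelial receptor TEK, had 118, 125 and 124 CPM with DUXC and 4.21, 4.29 and 4.13 CPM with GFP (log2 4.86 ± 0.063). IGF1, a growth factor for muscle, had 26.1, 25.1 and 25.5 CPM with DUXC and 226, 227 and 214 CPM with GFP (log2 -3.12 ± 0.044). All libraries of the groups were separate for these 3 genes. AREG, a ligand of the EGF receptor, the platelet-derived factor PDGFC and the stem cell factor gene KITLG fell, by log2 changes of -1.94, -1.24 and -1.28. The 2 receptors of platelet-derived growth factor moved apart: PDGFRA rose from 373 ± 5.67 to 926 ± 13 CPM and PDGFRB fell from 247 ± 3.71 to 110.2 ± 2.02 CPM. ERBB3 and FGFR4 rose with log2 fold changes of 4.40 and 2.81, and AXL fell with -1.47. The largest adjusted p among the genes named as raised or lowered was 1.30e-20.

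In the WNT pathway 14 of 41 genes rose (34.1%) and 24 fell (58.5%), beside 40.2% and 42.3% of all tested genes. The ligand genes WNT3 and WNT2 rose from 0.303 ± 0.0776 to 5.62 ± 0.389 CPM and from 0.574 ± 0.0531 to 7.18 ± 0.800 CPM, and RSPO2, which strengthens WNT signals, was at least 168-fold higher at 4.24 ± 0.370 CPM. SFRP2, a secreted WNT modulator and one of the abundant transcripts of the control, had 1994, 1951 and 1851 CPM with DUXC and 7014, 6880.0 and 7018 CPM with GFP (log2 -1.85 ± 0.032). The receptor gene FZD1 and the ligand WNT4 fell, from 297 ± 4.23 to 67.5 ± 1.66 CPM and from 1.72 ± 0.242 to 0.194 ± 0.0398 CPM. Among Notch pathway genes 11 of 22 rose (50%) and 9 fell (40.9%), beside 40.2% and 42.3% of all tested genes. The receptor NOTCH3, a marker of pericytes, had 15.2, 16.0 and 15.9 CPM with DUXC and 110.4, 103 and 111 CPM with GFP (log2 -2.79 ± 0.045). NOTCH1 and the ligand JAG1 fell, by log2 changes of -2.04 and -1.18. The ligand DLL1 rose from 0.439 ± 0.109 to 5.69 ± 0.846 CPM and the coactivator MAML1 rose from 31.5 ± 2.48 to 349 ± 5.97 CPM. Among these genes the largest adjusted p was 2.95e-14.

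Nearly all interferon response genes rose. They encode sensors and effectors of antiviral defence. Of 45 tested, from 47 in the table, 42 rose, 31 of them at least 2-fold, and none fell. Their median was 1.47. IFNAR1, IRF2 and SP110 did not pass. No member fell at an unadjusted p under 0.05 in edgeR, DESeq2 or limma-voom, and without the filter on low counts 1, IFNAR1, was called lower. The gene labelled HELZ2, the name of a helicase of this response, had 78.5, 82.8 and 79.0 CPM with DUXC. It had 0, 0 and 0.0513 CPM with GFP, a ratio of 4759 (1317 to 39302). It lies on chromosome 6 beside NLRP9, in a run of 3 neighbours raised at least 8-fold. Whether this locus encodes the helicase was not checked. IFI44 had 48.0, 51.3 and 53.4 CPM with DUXC and 3.96, 4.13 and 4.39 CPM with GFP (log2 3.61 ± 0.067). OAS2, which starts RNA decay on sensing double-stranded RNA, had 115, 127 and 121 CPM with DUXC and 24.8, 22.9 and 23.1 CPM with GFP (log2 2.36 ± 0.047). The groups did not overlap for these genes. The receptor subunit gene IFNAR2 rose from 30.5 ± 0.899 to 78.8 ± 3.40 CPM. CXCL10, a chemokine named after its values were seen, had 23.5, 42.4 and 30.2 CPM with DUXC and 0.0734, 0.0257 and 0.0257 CPM with GFP. The interferon gene IFNB1 had 23 counts with DUXC and none with GFP and was below the filter.

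Genes of NF-kB signalling, chemokines and cytokines rose in 32 of 37 tested, 25 of them at least 2-fold, and fell in 4, with a median of 1.66. CCL20, a chemokine for lymphocytes and dendritic cells, had 50.9, 55.3 and 52.7 CPM with DUXC and 0.0734, 0.0257 and 0.103 CPM with GFP (log2 9.55 ± 0.14). VCAM1, an adhesion molecule for leukocytes that is also found on satellite cells, had 78.1, 85.8 and 83.3 CPM with DUXC and 2.42, 3.00 and 2.82 CPM with GFP (log2 4.91 ± 0.068). TNFAIP3, the feedback inhibitor A20 of NF-kB, had 119, 134 and 122 CPM with DUXC and 10.5, 11.0 and 10.3 CPM with GFP (log2 3.56 ± 0.048). The cytokine IL1A rose from 11.8 ± 0.650 to 127 ± 5.46 CPM. The 4 that fell were the alarmin IL33, the cytokine IL11, LCN2 and the NF-kB subunit RELA, with log2 fold changes of -0.80, -0.77, -1.51 and -0.53. Of 29 antigen presentation genes 10 rose (34.5%) and 11 fell (37.9%), near the 40.2% and 42.3% of all tested genes, with 7 lowered by library size alone and in DESeq2. The peptide transporter TAP1 and B2M rose with log2 fold changes of 0.68 and 0.48, and the chaperones PDIA3, CALR and CANX fell. The largest adjusted p among HELZ2, IFI44, OAS2, IFNAR2, CCL20, VCAM1, TNFAIP3, IL1A and the 4 lowered genes was 2.32e-11. The summed level of the immune cell markers was also higher with DUXC, as given above, and its part in them was not tested.

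**Figure D3:**
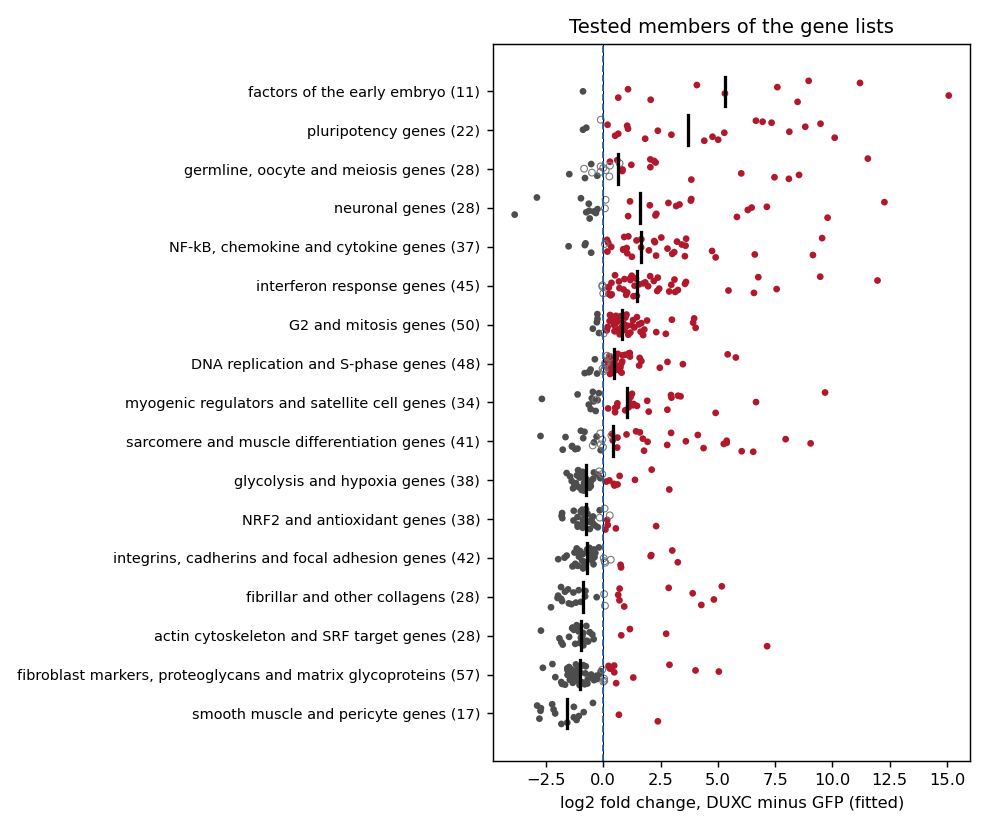
Fitted log2 fold change of DUXC against GFP for the tested members of 17 gene lists, with the number tested in brackets. Red points rose, dark points fell and open points did not pass, the black bar is the list's median and the dashed line the median of all tested genes, close to 0; the points of the interferon list lie almost wholly to the right, and those of the smooth muscle, matrix and actin lists mostly to the left.

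A second question is which functions of the cells were lost, beginning with the abundant products of connective tissue. Of 57 tested genes of fibroblasts, proteoglycans and matrix glycoproteins 43 fell, 28 of them at least 2-fold, and 10 rose, with a median of -0.99. Their summed level was 35731 to 37041 CPM with DUXC and 69246 to 72007 CPM with GFP. THBS1, thrombospondin-1, had 4969.9, 4644 and 4963 CPM with DUXC and 17295, 17384 and 17247 CPM with GFP (log2 -1.83 ± 0.031). FBN1, the main fibrillin of microfibrils, had 1964, 1809 and 1994 CPM with DUXC and 5749, 5613 and 5652 CPM with GFP (log2 -1.56 ± 0.045). TNC, the adhesion-modulating tenascin-C, had 907, 890.0 and 906 CPM with DUXC and 3160.3, 2996 and 3239.8 CPM with GFP (log2 -1.80 ± 0.033). The libraries of the groups stood well apart in each. ELN, elastin, VCAN, the proteoglycan versican, and EMILIN1, of elastic fibres, fell with log2 fold changes of -2.63, -1.67 and -1.57. SPARC, a collagen-binding protein, fell from 4807 ± 139.5 to 1750.0 ± 20.3 CPM, and VIM, the mesenchymal intermediate filament, from 7622 ± 216 to 3721 ± 50.9 CPM. In the other direction, the collagen receptor DDR2 rose from 995 ± 5.51 to 1385 ± 50.9 CPM and the fetal fibrillin FBN2 from 0.430 ± 0.0356 to 7.06 ± 0.307 CPM. No adjusted p of these genes was above 2.72e-16.

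Collagens fell in 17 of 28 and rose in 9, with a median of -0.88, and their summed level was 31368 to 31425 CPM with DUXC and 66135 to 69985 CPM with GFP. COL1A1, a chain of fibrillar collagen I, had 5303, 5381 and 5111 CPM with DUXC and 16799, 16003 and 17453 CPM with GFP (log2 -1.67 ± 0.041). COL1A2, its partner chain, had 7857, 7767 and 7816 CPM with DUXC and 19250.5, 18699 and 19807 CPM with GFP (log2 -1.30 ± 0.032). In both genes every DUXC library lay well below every GFP library. COL4A1 and COL4A2, the common chains of basement membrane collagen, which share a promoter region, fell from 794 ± 9.41 to 199 ± 4.01 CPM and from 409 ± 8.36 to 114 ± 4.15 CPM. COL5A1 and COL12A1 fell with log2 fold changes of -1.80 and -1.84. COL11A1, a chain of cartilage fibrils, had 136, 145 and 148 CPM with DUXC and 4.21, 4.13 and 3.49 CPM with GFP (log2 5.17 ± 0.058), and COL13A1 and COL14A1 rose with 2.86 and 0.71. The raised and lowered genes named had adjusted p-values of at most 1.57e-20.

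Genes that crosslink, fold or degrade the matrix fell more often than they rose. Of 53 tested, 32 fell (60.4%) and 18 rose (34.0%). The genes named here were chosen for a small p or a large fold, so no pattern by function is read from them. LOXL2 and LOXL4, lysyl oxidases that crosslink collagen, fell from 1075 ± 27.3 to 306 ± 2.07 CPM and from 158 ± 4.20 to 37.0 ± 0.281 CPM. SERPINH1, the collagen chaperone HSP47, fell from 1079.6 ± 23.5 to 408 ± 6.57 CPM, and P4HA2, a prolyl hydroxylase, from 411 ± 10.4 to 158 ± 2.86 CPM. Among the proteases, MMP12, macrophage elastase, had 140.0, 148 and 147 CPM with DUXC and 0.0245, 0.103 and 0 CPM with GFP (log2 11.65), and the interstitial collagenase MMP1 rose from 7.29 ± 0.790 to 39.3 ± 1.88 CPM. TLL1, a protease that trims procollagen, rose from 0.143 ± 0.0357 to 18.2 ± 1.44 CPM. ADAMTS16 fell from 6.97 ± 0.421 to 0.499 ± 0.152 CPM. Among these genes the largest adjusted p was 3.69e-25.

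Most genes of the contractile and adhesive apparatus fell as well. Of 28 genes of the actin cytoskeleton and targets of the factor SRF 24 fell and 4 rose, with a median of -0.96. TAGLN, transgelin, had 257, 252 and 251 CPM with DUXC and 899, 868 and 935 CPM with GFP (log2 -1.83 ± 0.033), and the non-muscle myosin gene MYH9 fell from 1986 ± 22 to 707 ± 17.1 CPM. SRF itself fell from 62.2 ± 1.69 to 39.4 ± 0.889 CPM. CTGF is a member of this list and rose. Of 42 integrin, cadherin and focal adhesion genes 32 fell and 6 rose, with a median of -0.69; by library size alone 10 rose. ITGA8 and the actin crosslinker FLNA fell from 292 ± 5.80 to 74.8 ± 4.24 CPM and from 3791 ± 95.4 to 1589 ± 15.0 CPM, and TNS1 and CDH11, the mesenchymal cadherin, with log2 fold changes of -1.34 and -1.16. ITGA2 and ITGA10, collagen-binding integrin subunits, rose with log2 fold changes of 2.07 and 2.10. No adjusted p of these genes was above 3.86e-20.

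Smooth muscle and pericyte genes fell in 15 of 17 tested, 13 of them at least 2-fold, with a median of -1.57. ACTA2, smooth muscle actin, had 368, 345 and 352 CPM with DUXC and 1669, 1606 and 1716 CPM with GFP (log2 -2.23 ± 0.034). CNN1, calponin, had 14.4, 13 and 13.1 CPM with DUXC and 84.7, 89.4 and 92.8 CPM with GFP (log2 -2.72 ± 0.049). No DUXC library overlapped a GFP library for either gene. The pericyte proteoglycan CSPG4 fell from 172 ± 8.26 to 38.3 ± 0.968 CPM. MCAM and RGS5, also of pericytes, rose, with log2 fold changes of 0.68 and 2.38. The summed level of the list was 2066 to 2180 CPM with DUXC and 6467 to 6526 CPM with GFP. Some of these genes are also in the actin and matrix lists, so the lists are not independent. The largest adjusted p among the genes named as raised or lowered was 5.29e-06.

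**Figure D4:**
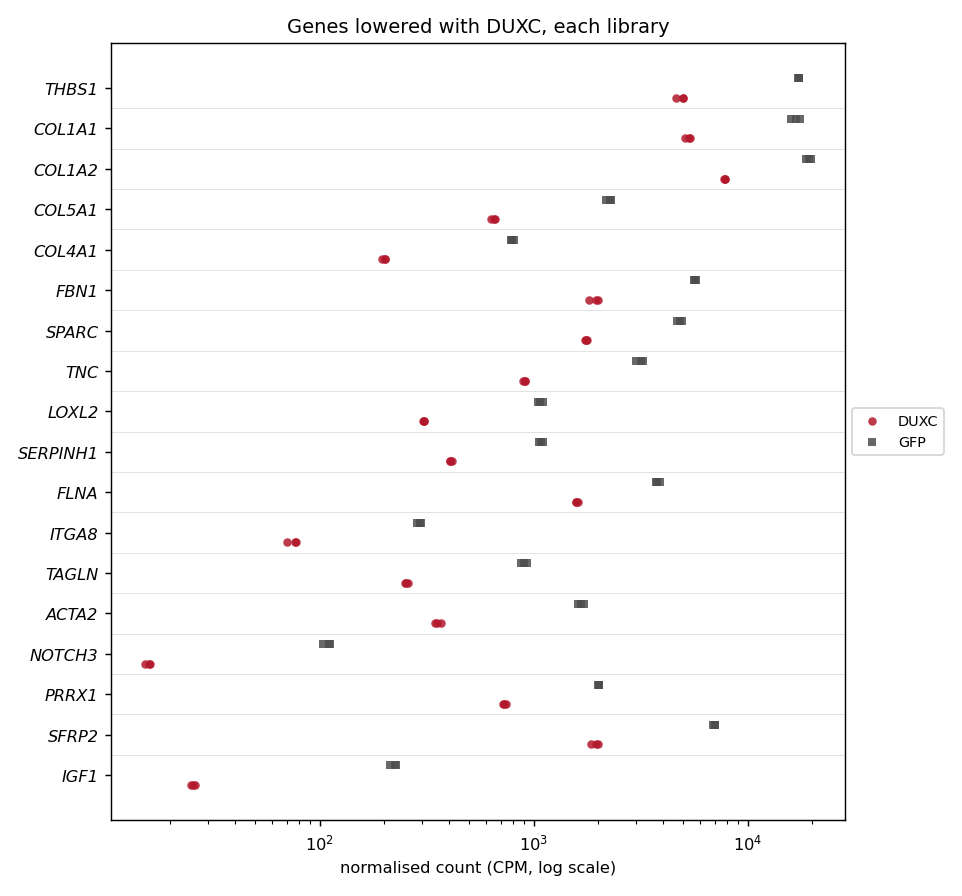
Normalised counts (CPM, log scale) in each of the 3 DUXC and 3 GFP libraries for 18 genes lowered with DUXC, among them collagens, matrix glycoproteins, actin-binding proteins and the mesenchymal factor PRRX1. In every gene shown the DUXC libraries lie to the left of all GFP libraries.

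Muscle lineage genes were mixed. Of 34 tested myogenic regulators and satellite cell genes 23 rose and 10 fell, with a median of 1.04. Of the 34, 9 were under 1 CPM with GFP. The summed level was 1888 to 1909 CPM with DUXC and 1557 to 1586 CPM with GFP. PAX3, the paralogue of PAX7, had 2.27, 2.77 and 2.88 CPM with DUXC and 0.906, 0.847 and 1.46 CPM with GFP (log2 1.30 ± 0.18). MYF5, one of the first factors of the muscle lineage, had 1.78, 1.49 and 2.07 CPM with DUXC and 0.832, 0.411 and 0.873 CPM with GFP (log2 1.33 ± 0.22). Libraries of the groups stood apart for both genes, but both rises are of a few CPM or less. SPRY1, a growth factor antagonist of quiescent satellite cells, rose from 5.75 ± 0.607 to 40.0 ± 0.229 CPM. TCF4, a bHLH partner of lineage factors, rose from 28.4 ± 0.814 to 112 ± 2.42 CPM. DAG1, dystroglycan, which anchors muscle fibres to the matrix, fell from 271 ± 6.12 to 125 ± 0.845 CPM. Among these genes the largest adjusted p was 3.21e-07.

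Sarcomere and muscle differentiation genes rose in 22 of 41 tested and fell in 13, and 23 of the 41 were under 1 CPM with GFP. With a filter of 1 CPM in 3 libraries 14 rose. MYOZ2, of the Z-disc, had 23.4, 25.4 and 23.1 CPM with DUXC and 0.0489, 0.0257 and 0.0513 CPM with GFP (log2 9.05 ± 0.17). XIRP1, of cell junctions in striated muscle, had 7.85, 9.23 and 10.2 CPM with DUXC and 0.220, 0.128 and 0.0513 CPM with GFP (log2 6.04 ± 0.21). TTN, the giant protein titin, rose from 7.18 ± 0.720 to 24.7 ± 1.80 CPM and NEB, nebulin, from 0.150 ± 0.130 to 5.92 ± 0.293 CPM. The tropomyosin genes TPM1 and TPM2, which non-muscle cells also use, fell from 2984 ± 18.2 to 1279 ± 26.8 CPM and from 309 ± 4.50 to 90.7 ± 4.22 CPM, and ENO3, muscle enolase, fell from 71.8 ± 1.33 to 22.9 ± 0.174 CPM. DES, given above, fell with a log2 fold change of -2.74. The summed level of the list was 1765 to 1823 CPM with DUXC and 3768 to 3808 CPM with GFP, although more members rose than fell.

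Most genes of cell division rose. Of 50 genes of G2 and mitosis 44 rose, 20 at least 2-fold, and 5 fell, or 3 by library size alone, with a median of 0.82. MAD2L1, of the spindle checkpoint, had 271, 281 and 269 CPM with DUXC and 17.3, 15.8 and 17.1 CPM with GFP (log2 4.03 ± 0.040). TOP2A, the topoisomerase of dividing cells, had 209, 228 and 226 CPM with DUXC and 34.4, 32.8 and 32.7 CPM with GFP (log2 2.73 ± 0.041). MKI67, a marker of dividing cells, had 24.6, 26.1 and 25.5 CPM with DUXC and 14, 14.3 and 15.3 CPM with GFP (log2 0.81 ± 0.052). The DUXC libraries lay above the control in all 3 genes, by the least in MKI67. Of 48 genes of DNA replication 35 rose and 6 fell, with a median of 0.46. CDC6, which licenses origins, rose from 0.691 ± 0.137 to 29.9 ± 1.57 CPM and E2F7, a repressor of E2F targets, from 2.04 ± 0.272 to 113 ± 6.04 CPM. TYMS and RRM2, which make DNA precursors, fell, by log2 changes of -0.81 and -0.59. The cyclin CCND1 and the inhibitor CDKN1A both fell, from 341 ± 8.02 to 143 ± 5.62 CPM and from 1177 ± 21.5 to 492 ± 9.81 CPM. No adjusted p of these genes was above 6.31e-10.

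Stress and metabolism genes changed in several directions. In the heat shock list 18 of 35 rose (51.4%) and 15 fell (42.9%), beside 40.2% and 42.3% of all tested genes. DNAJB1 and HSPH1, partners of HSP70, rose from 37.5 ± 1.48 to 192 ± 8.25 CPM and from 108 ± 1.11 to 328 ± 9.50 CPM, and HSP90AB1 fell from 1796 ± 28.8 to 1190.0 ± 7.27 CPM. Of 40 genes that answer unfolded proteins or the integrated stress signal 28 fell and 10 rose, PSAT1, of serine synthesis, falling from 1095 ± 14.1 to 454 ± 12 CPM and ATF3 rising from 8.46 ± 0.435 to 47.2 ± 2.25 CPM. Glycolysis and hypoxia genes fell in 27 of 38 and rose in 9. LDHA, lactate dehydrogenase, had 732, 752 and 747 CPM with DUXC and 1967, 1914 and 1906 CPM with GFP (log2 -1.38 ± 0.029), and PGK1 fell from 979.9 ± 2.67 to 469 ± 8.10 CPM. SLC2A3, a high-affinity glucose transporter, rose from 93.4 ± 0.511 to 689 ± 26.3 CPM and HK2, hexokinase, from 61.5 ± 1.89 to 161 ± 1.69 CPM. Antioxidant and NRF2 target genes fell in 30 of 38 and rose in 5, HMOX1, heme oxygenase, falling from 789 ± 16.9 to 224 ± 5.97 CPM and SOD2, the mitochondrial superoxide dismutase, rising from 54.3 ± 1.86 to 269 ± 23.2 CPM. Nuclear genes of oxidative phosphorylation fell in 54 of 59 by small amounts, with a median of -0.29. Ribosomal protein genes fell in 55 of 79 and rose in 2, but by library size alone 27 fell and 22 rose, so their direction depends on the scaling. The raised and lowered genes named had adjusted p-values of at most 1.26e-19.

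Immediate early genes, which respond to growth factors and stress within minutes, rose in 24 of 35 and fell in 10. DUSP5, a phosphatase that switches off ERK, rose from 9.43 ± 1.24 to 75.6 ± 4.42 CPM, and ZFP36, which destabilises cytokine messages, from 29.7 ± 0.787 to 84.5 ± 4.17 CPM. KLF6, KLF10 and the AP-1 subunit FOSL2 fell with log2 fold changes of -1.41, -1.29 and -1.03. Among cell cycle inhibitors, D cyclins and p53 targets 18 of 39 rose (46.2%) and 20 fell (51.3%), beside 40.2% and 42.3% of all tested genes. PLK2, a kinase induced by p53, and CCNG2, a cyclin of arrested cells, rose from 61.2 ± 1.34 to 339.9 ± 10.1 CPM and from 20.8 ± 0.631 to 97.7 ± 1.84 CPM. CCND1, CDKN1A, PHLDA3 and PLK3, of the same list, fell, with log2 fold changes of -1.25, -1.26, -0.85 and -1.11. In the apoptosis list 9 of 26 rose (34.6%) and 14 fell (53.8%), beside 40.2% and 42.3% of all tested genes. CASP10, an initiator caspase, and BIRC3, an inhibitor of apoptosis downstream of NF-kB, rose from 6.24 ± 0.453 to 44.1 ± 0.467 CPM and from 191 ± 6.92 to 408 ± 14.9 CPM, and the pro-survival gene BCL2L1 fell from 57.2 ± 0.875 to 33.1 ± 1.48 CPM.

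Of 46 splicing factors 23 rose and 19 fell (41.3%), beside 40.2% and 42.3% of all tested genes. SRSF2 had 197, 208 and 217 CPM with DUXC and 44.9, 45.3 and 44.7 CPM with GFP (log2 2.20 ± 0.044) and SRSF3 had 429, 444 and 435 CPM with DUXC and 144, 145 and 147 CPM with GFP (log2 1.58 ± 0.030), both serine- and arginine-rich splicing proteins. There was no overlap of the groups for either gene. HNRNPA3, a partner of nascent RNA, fell from 361 ± 6.11 to 207 ± 8.89 CPM. In the nonsense-mediated decay list 11 of 21 rose (52.4%) and 8 fell (38.1%), or 5 by library size alone, none of them 2-fold. These shares stand beside 40.2% and 42.3% of all tested genes. The log2 fold change was 0.56 for UPF2 and -0.27 for the kinase SMG1. Translation factors fell in 39 of 58 and rose in 12. The elongation factor EEF1A2 fell from 82.2 ± 1.21 to 27.8 ± 0.729 CPM, and EIF2AK2, the kinase PKR that senses viral RNA, rose from 52.7 ± 2.65 to 100.1 ± 7.26 CPM. Proteasome genes fell in 25 of 47 and rose in 13, or in 20 by library size alone.

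The direct contrast of DUXC with DUX4, which holds no GFP library, tests where the pig factor differed from the human one in the same cells. Of the tested genes 6635 were higher with DUXC (41.6%) and 6515 lower (40.8%). Of the 1419 genes raised at least 8-fold over GFP, 1347 were also higher with DUXC than with DUX4 and 26 were lower. The same DUXC libraries chose these genes and form one side of the contrast, so this imbalance is partly fixed by the choice and nothing is read from it. The amounts of the 2 transgene products were not analysed here, so the factor and its dose cannot be told apart. RND1 stood at 8.36, 8.47 and 9.03 CPM with DUX4, a log2 difference of 7.25. CYP7A1 had 0.136 ± 0.0733 CPM with DUX4 and KCNK10 no count. Of the 11 tested embryo factors 8 were higher with DUXC and 2 lower, LEUTX at 0.930 ± 0.234 CPM and KLF5 at 12.6 ± 1.28 CPM with DUX4 differing by 6.85 and 1.58. GSC had 0.691 ± 0.184 CPM with DUX4, a difference of 4.39. Interferon response genes were higher with DUXC in 44 of 45, and none was lower at an adjusted or an unadjusted p under 0.05 in edgeR, DESeq2 or limma-voom. OAS2 had 20.6 ± 1.76 CPM with DUX4, a log2 difference of 2.55.

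Other groups stood lower with DUXC. Of the mitosis genes 44 of 50 and of the replication genes 39 of 48 were lower than with DUX4, as were 29 of 38 glycolysis and hypoxia genes, 30 of 38 antioxidant genes, 28 of 42 adhesion genes and 22 of 28 actin and SRF target genes. MKI67 had 136 ± 7.18 CPM with DUX4, a log2 difference of -2.42 (adjusted p = 1.46e-42). TOP2A did not pass (adjusted p = 0.895), and MAD2L1, at 64.1 ± 1.19 CPM with DUX4, was higher with DUXC by 2.09. LDHA had 3664 ± 8.83 CPM with DUX4, a log2 difference of -2.30. TNC, at 11227 ± 488 CPM, and VIM, at 13654 ± 514 CPM, lay above the control with DUX4 and below it with DUXC, and the direct differences were -3.64 and -1.88. The fibroblast and matrix list was split, with 27 of 57 genes higher with DUXC and 28 lower. SFRP2 and FBN1 did not pass (adjusted p = 0.491 and 0.314). IGF1 stood higher with DUXC than with DUX4, where it had 5.20 ± 0.836 CPM, a difference of 2.30.

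**Figure D5:**
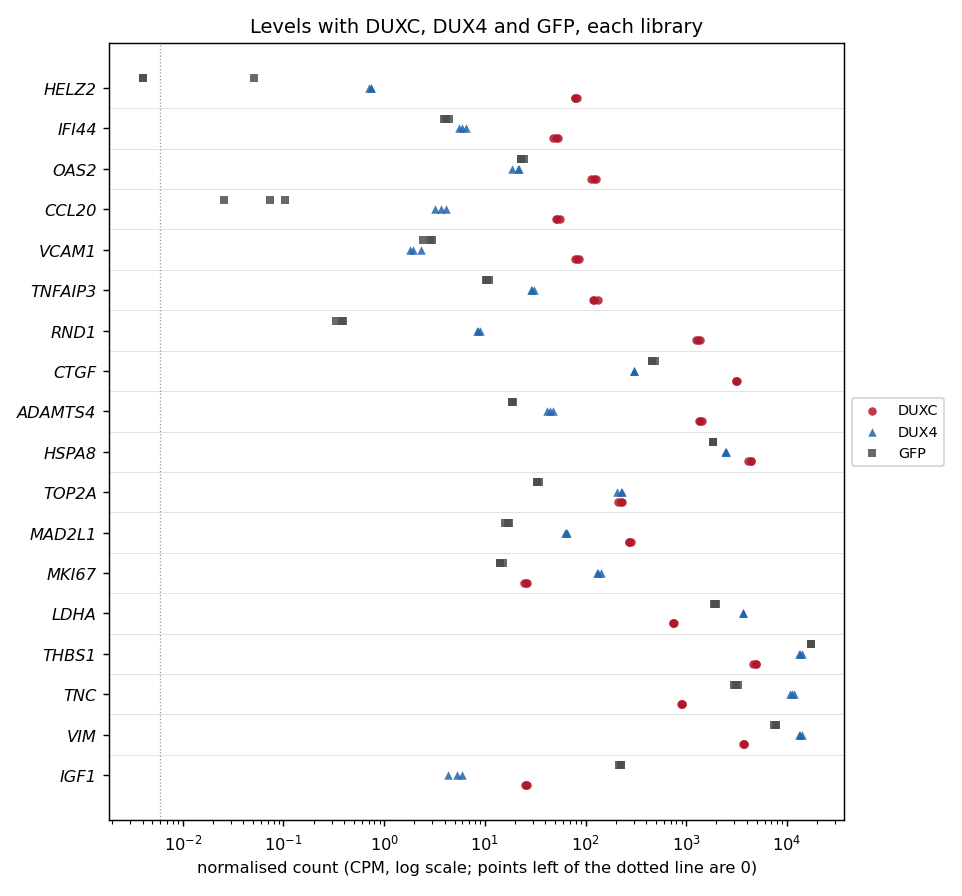
Normalised counts (CPM, log scale) in each library of the DUXC, DUX4 and GFP groups for 18 genes, with libraries at 0 drawn left of the dotted line. The interferon and NF-kB genes at the top are highest with DUXC, MKI67, LDHA, TNC and VIM are highest with DUX4, and TOP2A overlaps between the factors.

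The calls of RN18S and AKR1C1_1 rest on libraries that differ within a group. RN18S, a ribosomal RNA that should be scarce in poly(A) libraries, had 3816, 1928 and 1768 CPM with DUXC and 8433, 6588 and 7641 CPM with GFP (log2 -1.59 ± 0.51, adjusted p = 0.0238). The call was lost without DUXC replicate 2 (adjusted p = 0.0768), DUXC replicate 3 (0.0756), GFP replicate 1 (0.0599) or GFP replicate 3 (0.0527). AKR1C1_1, an aldo-keto reductase gene, had 0.672, 0.906 and 0.663 CPM with DUXC and 9.91, 2.26 and 2.41 CPM with GFP, with GFP replicate 1 above the other 2, and its call (adjusted p = 0.0219) was lost without any 1 of the DUXC libraries, with adjusted p-values from 0.0555 to 0.0643. Whether the counting used strand is not given in the sources used here, so genes whose span overlaps another gene may hold reads of it. Among those described above library by library these are GSC, NXF1, CYP7A1, ACOD1, PRRX1, HOXB6, ZNF711, MSTN, ANGPT2, IGF1, NOTCH3, COL11A1, MYF5, MYOZ2, SRSF2, SRSF3 and RN18S.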

How the data were processed

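Poly(A) RNA of doxycycline-treated pig cells was sequenced from TruSeq stranded libraries, and the submitters deposited raw counts per gene, whole numbers that were not normalised, in 1 table of 27339 genes and 9 libraries. Per the submitters' processing notes, CASAVA 1.9, Trim Galore and featureCounts were used with the build Sscrofa11.1, and per the file headers trimmed first reads were aligned with Subread. Versions of Trim Galore and featureCounts, and the strand setting, are not stated there.

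Groups were taken from the labels. Of the genes, 3855 had no count in any library and 11383, these included, were removed by edgeR's filterByExpr, leaving 15956. All 9 libraries entered 1 quasi-likelihood fit in edgeR 4.0.16 (R 4.3.3) with TMM scaling, robust dispersion and Benjamini-Hochberg adjustment at 0.05 over all tested genes. The common coefficient of variation was 3.38%. DUXC was contrasted with GFP and, directly, with DUX4. Error terms are SDs over n = 3 libraries for CPM and standard errors for log2 fold changes. Same-group libraries differed by more than sampling noise. An exact permutation test of 3 against 3 libraries cannot go below p = 0.1 and was not used.

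The DUXC comparison and its 54 gene lists were chosen with earlier results of these data known. Genes were named by a rule: the 25 largest rises and falls by fold among called genes with a symbol of their own (no locus identifiers), a higher group averaging 1 CPM or more and groups that do not overlap, the 12 largest gains and losses in CPM among genes with a symbol that changed at least 2-fold, the 12 largest rises and falls among transcription factors under the limits of the first, from every list up to 4 raised and 4 lowered genes with the smallest p, and a set of 21 embryo and muscle genes. It named 451 genes, of which 126 overlap another gene. Gene classes came from RefSeq, where 26838 IDs (98.2%) matched. Alternatives tried were 2 other scalings, no filter and a stricter one, DESeq2 1.42.0, limma-voom (limma 3.58.1), a fit of 2 groups, a prior count of 2, a replicate block and leaving out each library. No sequences are printed because none were used here.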

Additional observations from a re-analysis of the deposited data

How the results depend on the processing

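Of the 8 counts of genes given for the contrasts with GFP and DUX4, 6 stayed within 1.5 times under all alternatives that were run. The exceptions were both counts at 8-fold, which depend on how low genes are treated. Without a filter on low counts 2693 genes rose and 34 fell at least 8-fold, with a minimum of 1 CPM in 3 libraries 872 rose and 8 fell, and with a prior count of 2, 8 fell. With each library left out in turn, 6350 to 6639 genes rose and 6558 to 6912 fell against GFP. At least 2-fold, 3451 to 3665 rose and 1265 to 1325 fell, and at least 8-fold, 1468 to 1601 rose and 15 to 18 fell. Against DUX4, 6541 to 6830 genes were higher and 6371 to 6617 lower. Replicate numbers did not pair the libraries, with correlations of same-numbered deviations of DUXC and GFP libraries from -0.117 to -0.00657. The fit with a replicate block called 6403 raised and 6722 lowered genes against GFP, and 6600 higher and 6494 lower against DUX4. Of 446 named genes tested, 441 kept direction and call under every alternative that gave a value and none reversed. The others were RN18S and AKR1C1_1, described above, the latter also lost with limma-voom (adjusted p = 0.0682) and in the fit of 2 groups (0.0627), and CDC25A, NDUFA9 and RPL37, whose changes were under 0.3 on the log2 scale. Of 1836 list counts compared over the alternatives, 1807 stayed within 1.5 times. The median log2 fold change of the tested genes, -0.031 in the fit reported, was 0.046 with DESeq2 size factors, and over the alternatives it ran from -0.075 without a filter to 0.094 by library size alone. At this depth 3 counts over the 3 GFP libraries correspond to 0.0253 CPM, which limits the folds of genes silent in the control. The causes of these differences were not tested.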
